A study of Mus musculus with 3 samples.

Results

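The Trim family was followed in B16F10 cells, a mouse melanoma line, in which the messenger RNA for the Mediator subunit Med23 had been knocked down. Members were the genes whose symbol is Trim followed by a number, together with Pml, and 44 of the 12852 genes in the table met this rule. The 12 members that are known from other cells to be inducible by interferon were kept apart from the remaining 32. The series held 1 library of control cells, titled siCtrl and labelled wild type, and 2 libraries of cells labelled as knockdowns of Med23, all grown in the same medium with serum. The labels name neither the siRNA sequences nor the time of harvest, and they do not state that the knockdown libraries were separate cultures, so the spread between them may be technical. The table's header does not tell which knockdown column is which, so these libraries are called first and second by their place in the table.

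Trim proteins carry a tripartite motif, made of a RING finger, B-box zinc fingers and a coiled coil, and most of them act as ubiquitin ligases. The RING finger recruits an enzyme charged with ubiquitin, while the domain at the carboxyl end chooses the target and sorts the family into classes. Many members are antiviral. Some restrict retroviral capsids, others attach ubiquitin to the sensors and adaptors of the RNA and DNA sensing pathways, and a subset of their genes is switched on by interferon. Members outside that subset serve in chromatin silencing, muscle protein turnover, centriole control and nerve cells.

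Values were RPKM, read density scaled by transcript length and library size, which may be compared between genes because they are per length. The libraries had been brought to a common distribution, so the read depth is unknown and a change in total RNA cannot be seen. In bulk RNA, a change in the number of cells with a transcript and a change in the RNA per cell cannot be told apart. Med23 stood at 5.23 RPKM in the control and at 1.65 and 1.61 RPKM in the knockdown libraries, 3.20-fold lower (limma adjusted p = 0.00121). All 10 melanocyte markers looked for had a row, and together they summed to 7103 RPKM in the control against 3034 and 2922 RPKM after knockdown. Of 15 marker symbols of leukocytes, fibroblasts, endothelium and epithelium, 3 had a row and 12, among them Ptprc, Pecam1 and Krt14, did not. Adgre1 and Emr1 among the 12 are symbols of the same gene. The 3 with a row summed to 17.2, 10.7 and 11.0 RPKM, nearly all of it Cd68 (16.9, 10.0 and 10.1 RPKM). The fibroblast marker Pdgfra went the other way, from 0.151 RPKM to 0.449 and 0.519 RPKM, and whether it bears on the members was not tested.

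The results turn on a run of Trim genes on chromosome 7, and short stretches of their promoters are shown because 5 of its genes were far higher in both knockdown libraries. The pattern sought was GAAANNGAAA on either strand, a spacing of GAAA repeats found in interferon-stimulated response elements, within 250 bases before and 50 bases after the RefSeq start (GRCm38.p6). Each sequence is 30 bases on the gene's own strand, and the capitals mark the match, which reads TTTCNNTTTC where it lies on the opposite strand.
Trim30a, chr7:104465210-104465239, minus strand: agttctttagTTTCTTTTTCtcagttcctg
Trim30d, chr7:104507871-104507900, minus strand: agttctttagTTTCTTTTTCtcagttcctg
Trim12c, chr7:104353359-104353388, minus strand: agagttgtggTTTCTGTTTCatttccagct
Trim12a, chr7:104315466-104315495, minus strand: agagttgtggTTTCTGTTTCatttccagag
Trim34a, chr7:104244457-104244486, plus strand: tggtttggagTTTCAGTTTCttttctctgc
Trim21, chr7:102565447-102565476, minus strand: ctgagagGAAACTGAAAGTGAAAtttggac
Trim26, chr17:36836979-36837008, plus strand: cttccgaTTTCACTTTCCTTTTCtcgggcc

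The printed stretches of Trim30a and Trim30d are the same letters, and those of Trim12c and Trim12a have the same capitals. In Trim30a the match lies 36 to 27 bases before the start shown, and a further Trim30a start has a match 2 to 11 bases after it. The match lies in Trim30d 41 to 32 and in Trim12c 29 to 20 bases before the start. In Trim12a and in Trim34a it lies 10 to 19 bases after the start. Trim21 and Trim26, interferon-inducible members outside the run, are shown for comparison. Each has overlapping matches, in Trim21 from 13 to 28 bases after the start and in Trim26 from 160 to 145 bases before it.

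A window was at hand for 32 members. The pattern was found in 7 of 11 interferon-inducible members (63.6%) and in 1 of 21 other members (4.76%), Trim2. Among all genes of the table with a window it was found in 322 of 8952 (3.6%), and among all 32851 windows of the same length in 1131 (3.44%). In the run, 5 of 6 genes with a row carried it and Trim6 did not. Pml, Trim25 and Trim56 had no match in this window. The pattern TTCNNNGAA, a second spacing known from interferon-responsive promoters and searched on either strand, was in 2 of 32 members, Trim45 and Trim46, and in 748 of 8952 genes of the table with a window (8.36%). A match describes letters in a window and shows no binding.

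Of the interferon-inducible members, 5 genes of the chromosome 7 run were more than 10-fold higher in both knockdown libraries, and none of the 6 members elsewhere in the genome was. The list holds 23 entries, of which 12 had a row. Trim5, Trim30b, Trim30c, Trim34b, Trim38 and Trim69 are genes of the annotation without a row here, and the remaining 5 entries are names that the annotation does not use. By ratio alone, with no test, 6 of 12 were at least 2-fold higher in both libraries and 0 of 12 at least 2-fold lower. Across the table, 6.51% of rows were at least 2-fold higher in both libraries, 6.71% at least 2-fold lower in both and 0.521% at least 10-fold higher in both. The 10-fold limit was set after seeing the data. In the control the median was 0.0643 RPKM in the run and 3.72 RPKM for the 6 members elsewhere, so the sets started from unlike levels. The difference between the interferon-inducible members and the others was not tested.

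**Figure D1:**
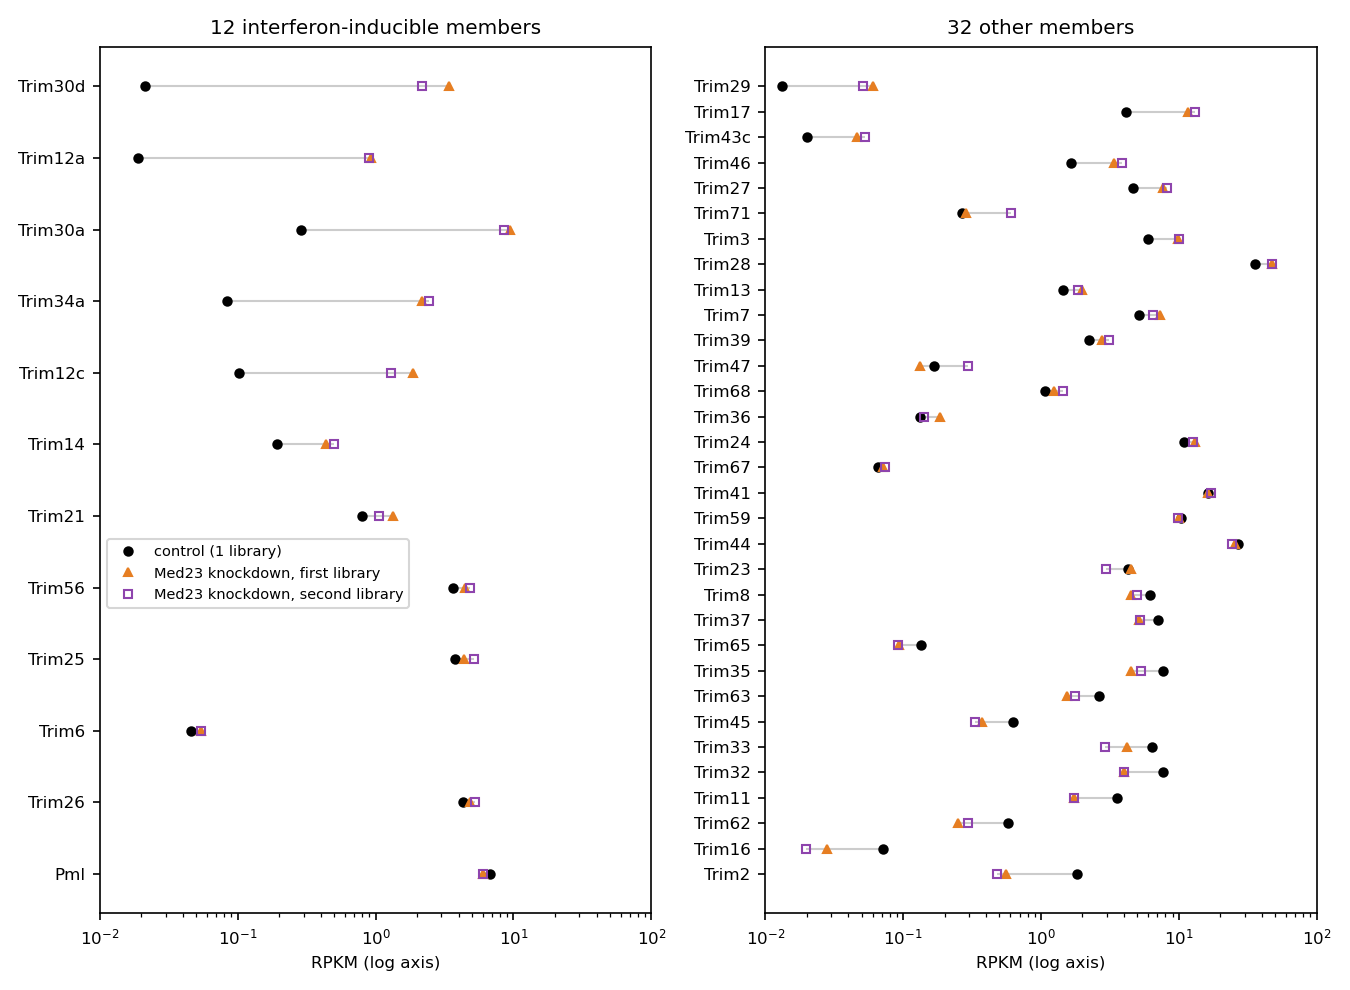
RPKM (log axis) of the 12 interferon-inducible members, left, and the 32 other members, right; circles are the control library, triangles the first and open squares the second knockdown library, and each line joins the lowest and the highest of the 3 values of a gene. Trim30d, Trim12a, Trim30a, Trim34a and Trim12c lie more than 10-fold to the right of their control values, and in no other member do both knockdown values lie that far away.

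Trim30a had the highest level of the run. The protein damps Toll-like receptor signalling by removing the adaptors Tab2 and Tab3. It stood at 0.288 RPKM in the control and at 9.47 and 8.58 RPKM in the knockdown libraries, 32.9-fold and 29.8-fold higher. Its place among all genes of a library moved from percentile 14.1 to percentiles 69.2 and 67.0. On the log2(RPKM + 1) scale the difference was 2.96 ± 0.118 (SE, limma adjusted p = 0.000195). Its mean over the libraries reached the 1 RPKM needed for the test through the knockdown values, so the p-value adds nothing to the ratios.

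Trim30d, a neighbour in the same subfamily, was at 0.0212 RPKM in the control and at 3.42 and 2.17 RPKM after knockdown. The ratios were 162 and 103, and both knockdown values lay far above the control, with the first library the higher. The log2(RPKM + 1) difference was 1.88 ± 0.211 (SE, limma adjusted p = 0.00217). Trim30d too reached the test through the knockdown libraries, so this p-value adds nothing to the ratios. So low a control value has an unknown error, since no read counts were given, and the ratio carries that error.

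Trim34a, related to the retroviral restriction factors, was at 0.0829 RPKM in the control and at 2.16 and 2.44 RPKM in the knockdown libraries. The log2(RPKM + 1) difference was 1.61 ± 0.122 (SE, limma adjusted p = 0.000759). Trim12c, which together with Trim12a and Trim5 makes up the mouse counterpart of human TRIM5, was at 0.102 RPKM in the control and at 1.87 and 1.30 RPKM after knockdown. The difference was 1.22 ± 0.164 (SE, limma adjusted p = 0.00350). Both genes were low in the control and above 1 RPKM in both knockdown libraries. They reached the test through those libraries, so their p-values add nothing to the RPKM values.

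Trim12a stood at 0.0190 RPKM in the control and at 0.924 and 0.898 RPKM after knockdown, 48.6-fold and 47.2-fold higher. Its mean over the libraries was below 1 RPKM, so it was not tested with the other genes. With every row tested, its limma adjusted p was 0.00309. Trim6, which makes free ubiquitin chains that activate the kinase encoded by Ikbke, was at 0.0458 RPKM in the control and at 0.0541 RPKM in both knockdown libraries. It lies at the edge of the run and was the 1 gene of the 6 that was not 2-fold higher.

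The run holds 10 coding genes in the order Trim6, Trim34a, Trim5, Trim12a, Trim34b, Trim12c, Trim30b, Trim30c, Trim30a and Trim30d, and 6 of them had a row. The order comes from GENCODE M21, which belongs to another build than the deposited values. The nearest genes with a row on either side were Trim68 and Usp17le, with 94 and 10 coding genes without a row between them and the run. Trim68 stood at 1.08, 1.24 and 1.45 RPKM (limma adjusted p = 0.276), and Usp17le at 0.0225 RPKM in the control and 0.0253 and 0.0600 RPKM after knockdown. Neither was 2-fold higher in both libraries.

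**Figure D2:**
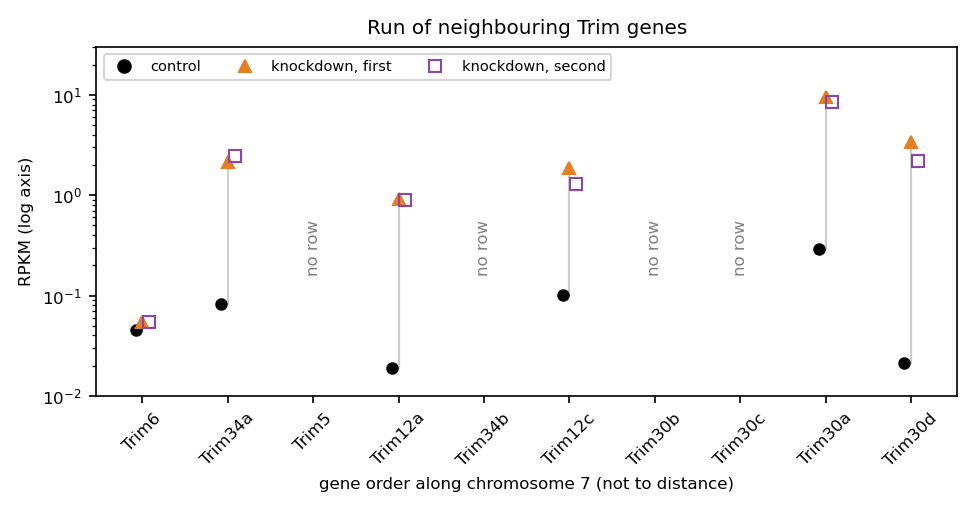
RPKM (log axis) of the 10 Trim genes of the chromosome 7 run in gene order, not to distance; circles are the control, triangles and squares the first and second knockdown library, and "no row" marks a gene without a value. Of the 6 genes with values, 5 were below 0.3 RPKM in the control and at least 10-fold higher in both knockdown libraries, and Trim6 stayed below 0.06 RPKM in all 3.

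Sequence shared between these genes limits how their reads can be told apart. Of the 50-base stretches of the Trim34a transcripts, 39.8% also occur in another gene, Trim34b, and for Trim12c the share is 33.0%, with Trim5 and Trim12a. It is 10.4% for Trim12a, 7.49% for Trim30d and 5.98% for Trim30a. The values of Trim34a and Trim12c are therefore uncertain as single genes, and the sources used here do not give how the authors' counting treated such reads.

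The 5 genes were also low to begin with. Of the 1851 rows below 0.3 RPKM in the control, 52 (2.81%) were at least 10-fold higher in both libraries, and 15 of these low rows were Trim members, of which 5 were. The 4 genes of the run that passed the filter on low values did so through the knockdown libraries, so their passing the test adds nothing to their ratios.

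The 6 interferon-inducible members outside the run include the best known ligases of antiviral signalling. Trim25, which attaches ubiquitin to the RNA sensor encoded by Ddx58, was at 3.79 RPKM in the control and at 4.39 and 5.19 RPKM after knockdown. The log2(RPKM + 1) difference was 0.27 ± 0.130 (SE, limma adjusted p = 0.136). Trim56, which modifies the adaptor encoded by Tmem173, stood at 3.65, 4.44 and 4.86 RPKM (difference 0.28 ± 0.114, SE, limma adjusted p = 0.0927). In both genes the knockdown values lay above the control by less than 1.4-fold, and neither difference passed the test. After a correction for transcript length and GC content both did, Trim25 with 0.44 (adjusted p = 0.00831, range 0.00831 to 0.685 over the settings) and Trim56 with 0.62 (adjusted p = 0.00119, range 0.00119 to 0.631).

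Trim21, a cytosolic receptor for antibody, was at 0.799 RPKM in the control and at 1.34 and 1.05 RPKM after knockdown (limma adjusted p = 0.129). Trim26 stood at 4.31, 4.80 and 5.26 RPKM (adjusted p = 0.228). Pml, the scaffold of the nuclear bodies that bear its name, was the 1 interferon-inducible member lower in both libraries, at 6.71 RPKM against 5.97 and 6.01 RPKM (difference -0.14 ± 0.102, SE, adjusted p = 0.292). None of these 3 passed the limma test.

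Trim14, a mitochondrial adaptor of RNA sensing that lacks a RING finger, rested at 0.193 RPKM in the control and at 0.440 and 0.503 RPKM after knockdown, 2.27-fold and 2.60-fold. It was below the filter. With every row tested its limma adjusted p was 0.0268. Its gene overlaps Nans on the opposite strand, which stood at 18.5, 24.0 and 22.7 RPKM, and the sources used here do not say whether reads were counted by strand. Of the 5 tested members outside the run, 0 were called by limma and 0 had an unadjusted p under 0.05. Across all 9722 genes tested, limma called 26.3% higher and 24% lower, and 5655 had an unadjusted p under 0.05. In the run, 5 of 6 genes were at least 2-fold higher in both libraries, and elsewhere 1 of 6, against 6.51% of all rows.

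Over the whole family, 30 members were tested and 14 lay below the filter. The limma test called 9 members higher (30%) and 6 lower (20%), and 15 did not pass. Of all 9722 genes tested, 26.3% were called higher and 24% lower. Of the 9 members called higher, 4 entered the test through the knockdown libraries, so nothing is read from the share of 30%. By ratio, 10 of 44 members (22.7%) were at least 2-fold higher in both libraries, against 6.51% of all rows, and 3 (6.82%) at least 2-fold lower, against 6.71%. Of these 10, 5 were related genes of the chromosome 7 run, so nothing is read from the share of 22.7% either. Among the 32 other members, 5 of 21 tested were called higher, 6 lower and 10 not, and 4 of 32 were 2-fold higher against 3 of 32 lower. With a mean of at least 1 RPKM required, 2 higher and 1 lower remained. Over all rows, filtered or not, the median log2(RPKM + 1) difference was 0.29 for the 12 interferon-inducible members, 0.02 for the 32 others and 0.000775 for the table.

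**Figure D3:**
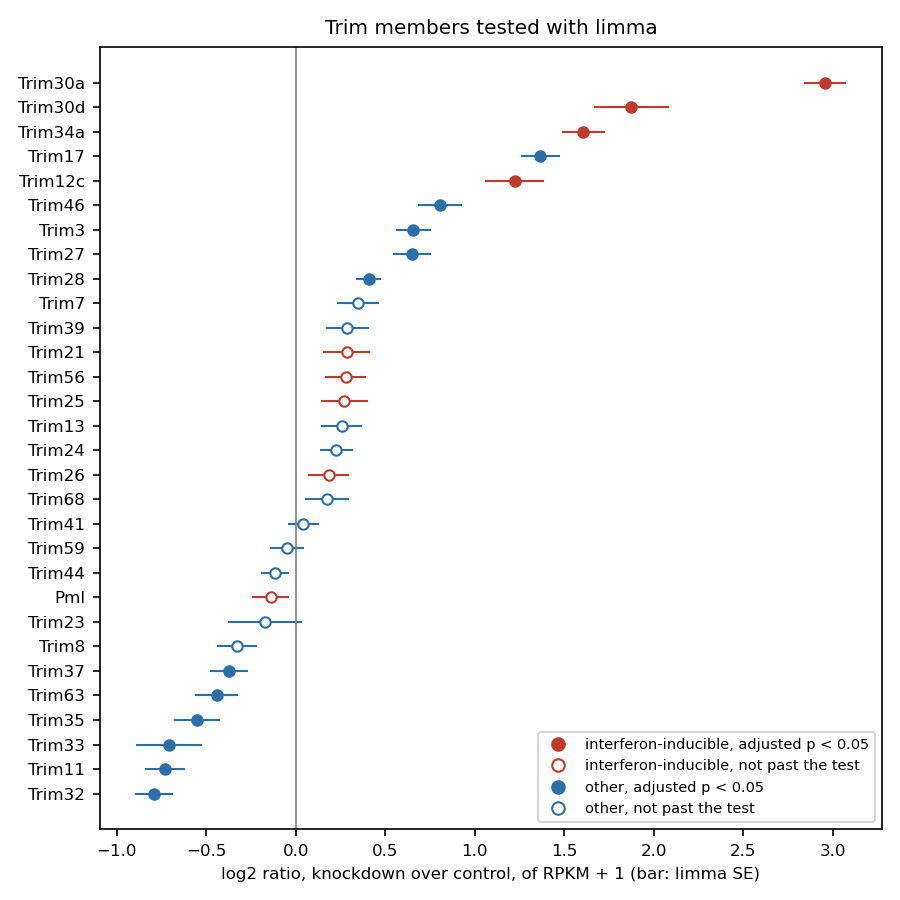
Difference in log2(RPKM + 1), knockdown minus control, for the 30 tested members; bars are the limma SE, filled symbols have an adjusted p below 0.05, red marks interferon-inducible and blue other members. Trim30a, Trim30d, Trim34a, Trim17 and Trim12c lie above 1, and the 6 members called lower lie between -0.79 and -0.37. Of the tested members, Trim21, Trim30a, Trim30d, Trim34a and Trim12c passed the filter through the knockdown libraries.

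Of the members with a PHD finger and bromodomain, which bind modified histones, 1 of 3 was called higher and 1 lower. Among all tested genes 26.3% were called higher and 24% lower, so nothing is read from these counts. Trim28, the corepressor that zinc finger proteins recruit to silence retroelements, was the most abundant member, at 35.4 RPKM in the control and 47.2 and 47.3 RPKM after knockdown. It rose by 0.41 ± 0.0686 (log2 scale, SE, limma adjusted p = 0.00673). Trim24, a coregulator of nuclear receptors, stood at 10.8, 13.1 and 12.6 RPKM and did not pass (adjusted p = 0.0927), but did after the length and GC correction (0.30, adjusted p = 0.0226, range 0.0226 to 0.631 over the settings). Trim33, a ligase and coregulator in Smad signalling, fell from 6.40 RPKM to 4.21 and 2.93 RPKM, with the second library the lower (difference -0.71 ± 0.185, SE, adjusted p = 0.0261). The call on Trim33 did not hold with every row tested (adjusted p = 0.0517) or after the length and GC correction (-0.31, adjusted p = 0.0532). Its adjusted p ranged from 0.0261 to 0.449 over the settings.

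Of 11 listed partners of Trim28 in silencing, 2 were called higher (18.2%) and 5 lower (45.5%) by limma, against 26.3% and 24% of all tested genes. Setdb1, the histone methyltransferase that Trim28 brings to its sites, stood at 3.22 RPKM in the control and 1.94 and 2.09 RPKM after knockdown (difference -0.49, adjusted p = 0.0187). Morc2a, an ATPase of the same silencing pathway, went from 2.32 to 0.985 and 1.11 RPKM (difference -0.70, adjusted p = 0.00667). D14Abb1e, an older symbol of the HUSH complex subunit Fam208a, went from 2.02 to 1.14 and 0.646 RPKM (difference -0.69, adjusted p = 0.0264). After the length and GC correction Setdb1 (-0.30, adjusted p = 0.0583) and D14Abb1e (-0.29, adjusted p = 0.0759) no longer passed.

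The NHL-repeat members, several of which bind RNA, split as well. Trim32, a ligase mutated in a form of limb-girdle muscular dystrophy, fell from 7.61 RPKM to 3.99 and 3.97 RPKM, and the knockdown libraries were within 1% of each other (difference -0.79 ± 0.106, SE, limma adjusted p = 0.00346). Trim3 rose from 5.93 to 9.84 and 10.0 RPKM (0.66 ± 0.0977, SE, adjusted p = 0.00472). Trim2, a ligase of neurofilament light chain in nerve cells, stood at 1.81 RPKM in the control and 0.562 and 0.481 RPKM after knockdown. It was 3.47-fold lower, the largest such ratio in the family, and lay just below the filter; with every row tested its adjusted p was 0.00503. Trim71, a regulator of embryonic stem cells, was at 0.266, 0.288 and 0.610 RPKM, and the knockdown libraries differed from each other 2.12-fold.

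Of the members with a COS box, a microtubule-binding stretch, Trim63, the muscle atrophy ligase known as MuRF, fell from 2.62 RPKM to 1.55 and 1.78 RPKM (-0.44 ± 0.121, SE, limma adjusted p = 0.0301). Trim46, which bundles microtubules at the start of the axon, rose from 1.65 to 3.41 and 3.86 RPKM (0.81 ± 0.122, SE, adjusted p = 0.00495). It overlaps Krtcap2 on the opposite strand, which was at 49.3 RPKM in the control and 55.9 and 56.6 RPKM after knockdown. Trim36 (0.133, 0.184 and 0.141 RPKM) and Trim67 (0.0661, 0.0717 and 0.0744 RPKM) were below the filter.

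The class with a PRY-SPRY domain outside the interferon list was the largest, with 13 rows. Of its 8 tested members 2 were called higher, 2 lower and 4 not, and 25% in either direction lies near the 26.3% and 24% of all tested genes. Trim17, a ligase that promotes death of nerve cells, rose the most of the members outside the interferon list by the test, from 4.16 RPKM to 11.7 and 13.0 RPKM (1.37 ± 0.111, SE, limma adjusted p = 0.000908). Its annotated exons overlap those of the histone gene Hist3h2a on the same strand, which went from 13.0 RPKM to 34.1 and 35.4 RPKM (1.35, adjusted p = 0.000394). Of the 50-base stretches of Trim17, 17.7% are shared, chiefly with Hist3h2a, so the value of Trim17 is uncertain as that of a single gene.

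Trim27, which activates the retromer-bound WASH complex, rose from 4.69 RPKM to 7.68 and 8.18 RPKM (0.65 ± 0.106, SE, limma adjusted p = 0.00601). Trim11 fell from 3.55 RPKM to 1.73 and 1.74 RPKM (-0.73 ± 0.112, SE, adjusted p = 0.00503), below 0.5 of the control in both. Trim35 fell from 7.64 RPKM to 4.48 and 5.32 RPKM (-0.55 ± 0.130, SE, adjusted p = 0.0184). Trim41 stood at 16.3, 16.3 and 17.2 RPKM (adjusted p = 0.714), and its gene overlaps Rack1, the gene of an abundant ribosome-bound scaffold, on the opposite strand. Trim7, which binds glycogenin, stood at 5.17, 7.27 and 6.45 RPKM (adjusted p = 0.0546). Trim39 stood at 2.22, 2.77 and 3.11 RPKM, and like Trim7 and Trim68 it did not pass. After the length and GC correction Trim7 (0.41) and Trim39 (0.40) did. The 5 members of the class below the filter were Trim16, Trim43c, Trim47, Trim62 and Trim65. Trim16 was lower in both libraries (0.0716 RPKM against 0.0282 and 0.0197 RPKM), and Trim43c higher (0.0202 RPKM against 0.0461 and 0.0525 RPKM) with 45.8% of its stretches shared. Trim62 was at 0.580 RPKM in the control and 0.249 and 0.294 RPKM after knockdown, and with every row tested it was called lower. Trim65 was at 0.135, 0.0939 and 0.0920 RPKM and Trim47 at 0.168, 0.132 and 0.295 RPKM.

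Of the members whose carboxyl end is shared by few others, 4 were tested and 1 was called lower. Among all tested genes 24% were called lower, so nothing is read from this count. Trim37, a ligase that restrains centriole assembly, fell from 7.01 RPKM to 5.14 and 5.22 RPKM (-0.37 ± 0.104, SE, limma adjusted p = 0.0315). The call was lost with every row tested (adjusted p = 0.0535) and after the length and GC correction (-0.16, adjusted p = 0.234), with a range of 0.0274 to 0.476 over the settings. Trim59, anchored in membranes, was at 10.3, 9.97 and 9.87 RPKM and Trim13, anchored in the endoplasmic reticulum, at 1.44, 1.98 and 1.86 RPKM. Trim23, which carries a GTPase domain, stood at 4.27 RPKM in the control and 4.50 and 2.98 RPKM after knockdown, on either side of it. Trim45, below the filter, was at 0.624, 0.374 and 0.330 RPKM and was called lower with every row tested.

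Outside these classes, Trim44, which has no RING finger and a zinc finger of deubiquitinases in its place, was the second most abundant member, at 27.1 RPKM in the control and 25.4 and 24.4 RPKM after knockdown (adjusted p = 0.271). Trim8, which binds Socs1, stood at 6.22, 4.53 and 4.98 RPKM (adjusted p = 0.0583), and it was called lower after the length and GC correction (-0.37). Trim29, also without a RING finger, was at 0.0133, 0.0602 and 0.0509 RPKM. Without that correction neither tested gene passed the limma test.

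**Figure D4:**
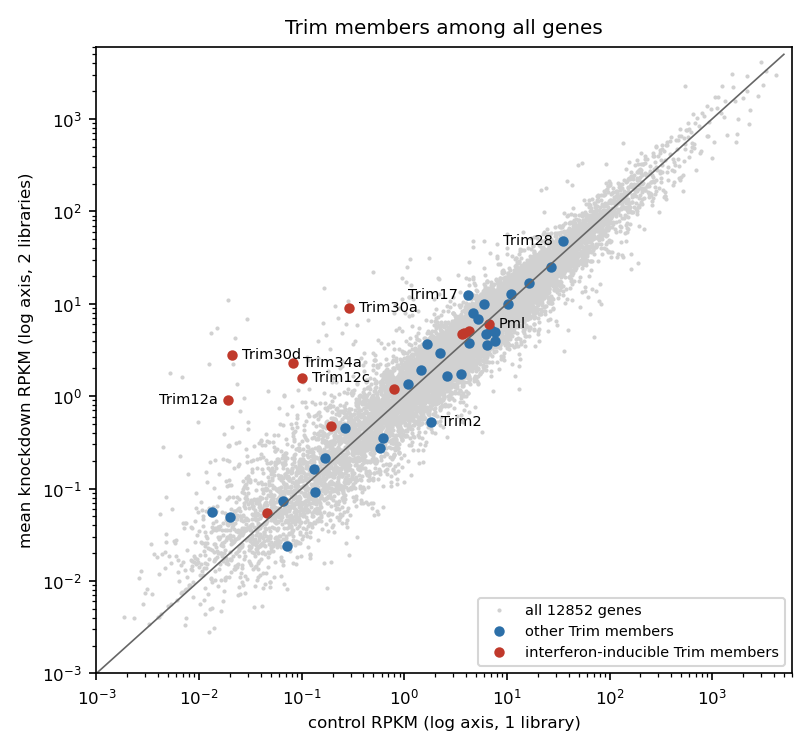
RPKM in the control library (horizontal, log axis) against the mean RPKM of the 2 knockdown libraries (vertical, log axis) for 12852 genes in grey, interferon-inducible Trim members in red and other Trim members in blue; the line marks equal values. Trim30a, Trim30d, Trim34a, Trim12c and Trim12a lie well above the line at control values below 0.3 RPKM, while Trim28 and Pml lie near it.

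The pathway around the interferon-inducible members was read from lists of partners. Of 11 genes of the interferon receptor and its signalling, 10 were tested, 7 were called higher (70%), 0 lower and 3 not, against 26.3% higher and 24% lower over all tested genes. At least 2-fold higher in both libraries were 6 of 11 (54.5%), against 6.51% of all rows. Irf9 and Usp18, at 0.943 and 0.496 RPKM in the control, passed the filter through the knockdown libraries, so their calls add nothing to their ratios. Irf1, a transcription factor induced by interferon, rose from 6.02 RPKM to 24.1 and 24.2 RPKM (1.84, limma adjusted p = 0.000239). Usp18, the protease that removes Isg15, rose from 0.496 to 23.1 and 21.3 RPKM (3.95, adjusted p = 7.98e-05).

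A further list held 16 genes of sensing pathways on which Trim proteins act, among them sensors, adaptors, kinases and transcription factors. Of these, 15 were tested, 6 were called higher (40%), 3 lower (20%) and 6 not, against 26.3% and 24% of all tested genes. Those at least 2-fold higher in both libraries numbered 4 of 16 (25%), against 6.51% of all rows. Irf7 and Ifih1, at 0.281 and 0.470 RPKM in the control, passed the filter through the knockdown libraries, so their calls add nothing to their ratios. Ddx58, the RNA sensor that Trim25 modifies, rose from 4.63 RPKM to 19.2 and 20.0 RPKM (1.87, limma adjusted p = 0.000263). Dhx58, a related helicase, rose from 1.19 to 7.19 and 8.07 RPKM (1.98, adjusted p = 0.000424), and the interferon regulator Irf7 from 0.281 to 10.1 and 11.3 RPKM (3.19, adjusted p = 0.000162). Tab2 and Tab3, the adaptors on which Trim30a acts, were looked up after the values were seen and are included in these counts. Tab2 stood at 23.2 RPKM in the control and 16.7 and 15.8 RPKM after knockdown (-0.49, adjusted p = 0.00820) and Tab3 at 1.51, 1.53 and 1.07 RPKM (adjusted p = 0.507).

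Of 16 enzymes that pass ubiquitin or Isg15 to such ligases, 15 were tested, 4 were called higher (26.7%), 2 lower (13.3%) and 9 not, against 26.3% and 24% of all tested genes, so the share called higher is that of the table. Uba7, which activates Isg15, rose from 1.14 RPKM to 3.99 and 4.55 RPKM (1.30, limma adjusted p = 0.00145). Ube2l6, which carries Isg15, rose from 7.94 to 30.2 and 32.4 RPKM (1.85, adjusted p = 0.000243), and Ube2e3, a carrier of ubiquitin, from 12.4 to 17.8 and 17.5 RPKM (0.47, adjusted p = 0.00857). By ratio, 2 of 16 (12.5%) were at least 2-fold higher in both libraries and 1 of 16 (6.25%) at least 2-fold lower. Across all rows these shares were 6.51% and 6.71%. The 2 that were higher, Uba7 and Ube2l6, are the enzymes of Isg15. The 1 that was lower, Ube2v2, was below the filter, at 1.53 RPKM in the control and 0.739 and 0.599 RPKM after knockdown.

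Of 15 partners of Pml in nuclear bodies and SUMO transfer, 7 were called higher by limma (46.7%), 0 lower and 8 not, against 26.3% higher and 24% lower over all tested genes. The 1 that was at least 2-fold higher in both libraries makes 6.67%, near the 6.51% of all rows. Sp100, an interferon-inducible body component, rose from 0.0213 RPKM to 2.30 and 2.19 RPKM (1.67, adjusted p = 0.000595), and it passed the filter through the knockdown libraries. Sumo3 rose from 37.6 to 55.1 and 55.9 RPKM (0.55, adjusted p = 0.00267) and the kinase gene Hipk2 from 8.81 to 13.4 and 13.9 RPKM (0.58, adjusted p = 0.00589). Members of the family under other symbols, Mid1 (1.67, 2.09 and 2.10 RPKM) and Mid2 (2.66, 2.92 and 2.73 RPKM), did not pass, and Mid2 did after the length and GC correction (0.35).

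**Figure D5:**
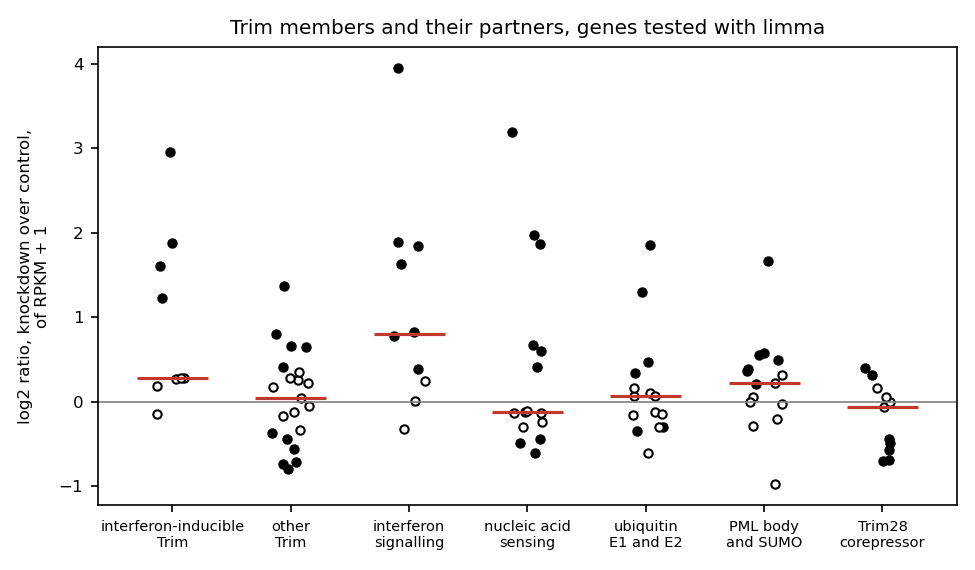
Difference in log2(RPKM + 1), knockdown minus control, for the tested genes of 7 lists; filled points have a limma adjusted p below 0.05, open points do not, and each red line is the list's median. The interferon signalling list has a median of 0.81, the interferon-inducible Trim genes 0.28 and the other Trim genes 0.04. Trim21 and 4 genes of the chromosome 7 run passed the filter through the knockdown libraries, as did Irf9 and Usp18 of the signalling list.

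With 1 control library, the limma test takes the control to vary like the knockdown libraries. Were its SD 2 times theirs, 5 members would be called higher and 1 lower, and at 3 times 1, Trim30a, and 0. Of these 5, 4 were genes of the chromosome 7 run, which passed the filter through the knockdown libraries. Their calls, that of Trim30a at 3 times included, add nothing to their ratios. Across all genes, 810 would be called higher and 683 lower at 2 times, and 118 and 77 at 3 times. Med23 itself would not pass at 3 times (limma adjusted p = 0.108). The libraries also differed with base composition. Over the 30 tested members, the difference between the second and the first knockdown library had a Spearman correlation of 0.606 with GC content, against 0.335 over 9614 genes, and the knockdown difference one of -0.159 against 0.178; these describe genes of the same 3 libraries. After the length and GC correction, 6 interferon-inducible and 8 other members were called higher and 5 members lower. Across all genes, 2690 were then called higher and 2443 lower.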

How the data were processed

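RNA from 3 libraries was sequenced, and the deposited values are RPKM. CASAVA 1.4, TopHat, Cufflinks and build mm9 are named, with no role or order, per the submitters' processing notes; the sources used here do not give the annotation. Ranked from low to high, the columns matched within a tolerance of 1e-09 at 95.3% of ranks, so the deposited RPKM had been quantile normalized. The sum (255492 RPKM) and median (4.20 RPKM) are thus common to the columns, and no depth or counting interval is known.

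Values were analysed as log2(RPKM + 1), which understates changes of low genes. The 9722 genes averaging 1 RPKM or more were tested with limma 3.58.1 in R 4.3.3 (lmFit, eBayes with an intensity trend, Benjamini-Hochberg over all genes, threshold 0.05). The fit had 1 residual degree of freedom and a prior of 4.37. Ratios of at least 2-fold in both knockdown libraries were counted over all rows. The limma step was tested on simulated data, in which the control was drawn with the same SD as the knockdown libraries. The simulation therefore shows nothing about a control that varies more than they do.

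The members and lists were chosen with earlier results of these data known. The genes named by rule were Med23, every interferon-inducible member with a row, up to 8 higher and 8 lower of the other members called, Trim2, Trim24, Trim28, Trim32, Trim33, Trim37, the 5 most abundant members and up to 3 genes of each partner list, ranked by the smaller change of the 2 libraries. Other members were given to account for the family. A gene that this rule names is not reported here. Gene order, length, GC content and 50-base stretches came from GENCODE M21, matched for 12606 genes (98.1%), and promoters from RefSeq (GRCm38.p6). Python 3.11.15 was used with pandas 2.3.3, numpy 2.4.6, scipy 1.17.1 and matplotlib 3.10.9.

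Other settings tried were no filter or 5 RPKM as its limit, a pseudocount of 0.1, medians made equal, a repeated quantile step, a fit without trend, a control SD of 2 or 3 times, each knockdown library left out, other fold limits and interferon lists. The 10-fold limit and a loess correction for length and GC content were added after seeing the data.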

Additional observations from a re-analysis of the deposited data

How the results depend on the processing

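The 46 named genes kept their direction without either knockdown library. No test was possible there, because 1 library a side leaves no residual degree of freedom. The naming rule had required 1 direction in both libraries of the called other members and the partner genes. For these genes the result was fixed beforehand. The named genes also kept direction and call with the pseudocount of 0.1 and no intensity trend, where tested. The same held for rescaled or again quantile normalized libraries. Since the deposited values were already quantile normalized, these settings could change little and show nothing about robustness. With the control SD taken as 2 times, 810 of all genes were called higher and 683 lower (2556 and 2332 before), and as 3 times 118 and 77. Other Trim members called higher then numbered 1 and 0 and lower 1 and 0, and interferon-inducible members called higher at 3 times numbered 1. That member, Trim30a, passed the filter through the knockdown libraries, so its call adds nothing to its ratios. At a mean of at least 5 RPKM, 1831 of all genes were higher and 1494 lower. There 1 interferon-inducible member, again Trim30a, and 4 other members were higher, and 3 other members were lower. The length and GC correction gave 8 other members and 2690 of all genes higher, and 5 and 2443 lower. It turned Trim44 (0.0877) and Trim41 (-0.00736), neither called. The wider interferon list had 1 member lower, Trim35. Other members past 3-fold numbered 1 higher and 1 lower, past 10-fold 0 and 0, and past 1.5-fold 6 higher and 7 lower. Past 2-fold with a mean of at least 1 RPKM they numbered 2 higher and 1 lower. No share of all rows is given at 1.5-fold or 3-fold, so nothing is read from those counts. No paired analysis was possible because the control had 1 library and no replicate number. RPKM without counts leave the error of members below 0.3 RPKM unknown.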

Other observations

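Outside the Trim family, 62 genes were at least 10-fold higher in both knockdown libraries, and 39 of them had a promoter window. The pattern GAAANNGAAA was in 12 of these 39 (30.8%), against 5 of 5 Trim members past the same limit and 322 of 8952 genes with a row (3.6%). These shares are descriptions of the windows, and no test was made on them. The 5 Trim members are related neighbours in the chromosome 7 run, so they are not independent promoters. The printed stretches of Trim30a and Trim30d are the same letters. Members with the pattern but without such a rise were Trim21 (1.67-fold and 1.32-fold), Trim26 (1.11-fold and 1.22-fold) and Trim2, which was 3.47-fold lower.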
